A study of Mus musculus with 12 samples.

Results

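The effect of losing Msi2 was compared between 2 mouse leukaemias, gene by gene. In each leukaemia the log2 difference between Msi2 mutant and wild-type arrays was taken, first in blast crisis chronic myelogenous leukaemia (bcCML) and then in acute myeloid leukaemia (AML). The AML difference was subtracted from the bcCML difference, and the result is called the interaction. A positive interaction means that the mutant minus wild-type difference was higher in bcCML than in AML. The genes described are those measurable in both leukaemias. A single probe set with 1 gene symbol stood for each, and it had to exceed a log2 intensity of 4 (16 units) on 3 or more arrays in bcCML and in AML. This held for 9663 of the 10817 genes tested. The rule pooled the mutant and wild-type arrays of a leukaemia and used no difference between them. A gene could still pass through 1 group alone, and 38 of the measurable genes had a group wholly below 16 units. Pik3r6, Abcb1b, Ak1, Fads1 and Elovl6, described below, were of this kind. They met the rule in 1 leukaemia only through the group where they read high, so their difference there is not independent of the rule. At the edge of the rule, 176 genes had exactly 3 arrays above 16 units in their dimmer leukaemia, with a median interaction of -0.08. Another 175 genes, excluded, had exactly 2, with a median of 0.08.

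The 12 arrays fell into 4 groups of 3, namely bcCML Msi2 mutant, bcCML wild-type, AML Msi2 mutant and AML wild-type. Both leukaemias were started in haematopoietic stem and progenitor cells (KLS cells) taken from donor mice, bcCML with BCR-ABL and NUP98-HOXA9 and AML with MLL-AF9, and grew after transplantation. The mutant donors carried a gene trap in both copies of Msi2 (Msi2 Gt/Gt), a lesion present before the oncogenes were added, and the labels give the strain B6;CB-Msi2Gt(pU-21T)2Imeg for mutant and wild-type arrays alike. Stem cells of the established disease were sorted untreated, from bcCML by absence of lineage markers (Lin-) and from AML by Lin-, Sca1- and Kit+ staining. Driver, disease and sort gate therefore cannot be told apart in any difference between the leukaemias. The titles call the arrays biological replicates but do not tie them to animals, so the p-values measure the spread between these arrays.

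Musashi2, the product of Msi2, is an RNA-binding protein of haematopoietic stem and progenitor cells that binds messenger RNAs and alters how they are translated. It is known for sustaining immature cells in myeloid leukaemias. MLL-AF9 and NUP98-HOXA9 are fusion proteins that act on chromatin and keep up expression of Hox genes and their cofactors, while BCR-ABL is a constantly active tyrosine kinase that signals through Stat5, Ras and phosphoinositide 3-kinase. The design therefore asks where the same lesion goes with different RNA levels in 2 oncogenic settings.

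Median intensity lay between 13.1 and 13.8 units on the 12 arrays, and 48.4% to 48.8% of probe sets read above 16 units. Arrays of a group correlated at 0.938 to 0.981 in log2 over the 10817 genes tested. The AML mutant array of replicate 1 stood apart on the second principal component (4.9% of the variance), at -58.2 against -31.9 or higher on the other arrays. Kit read 78.2 to 546 units across all arrays and Ptprc 1113 to 5286. Cd3e, Cd4, Cd8a and Ms4a1, which mark T and B cells, were below 16 units on all 12. Other lymphoid genes were not silent. The mean log2 over the arrays was 7.34 for Cd79b of B cells and 5.98 for Cd247 of T cells. Of the 20 genes in the B cell list, 5 were measurable in both leukaemias. The myeloid integrin Itgam was at the floor of the scale in bcCML, 4.51 to 4.52 units in mutants and 4.49 to 4.51 in wild-type, and was measurable in AML at 48.8 to 86.6 units in mutants and 35.0 to 49.5 in wild-type. In sorted populations such as these, a lower value can mean less RNA per cell or fewer cells of a type, and these cannot be told apart.

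No gene passed the interaction test. With limma's moderated test and Benjamini-Hochberg adjustment over all genes tested, 0 of 9663 measurable genes (0%) had an adjusted p under 0.05, and the smallest adjusted p was 0.0514, shared by Galnt7 and Tubb2a. An adjusted p under 0.10 was found for 15 genes, 8 positive and 7 negative. Without adjustment, 836 measurable genes (8.65%) had p under 0.05, against 1014 (9.37%) of all genes tested. Of the 9663 measurable genes, 500 (5.17%) were positive at that level and 336 (3.48%) negative, against 584 (5.4%) and 430 (3.98%) of all genes tested. The median standard error of an interaction was 0.32 on the log2 scale, and the median 95% confidence interval reached 0.72 to either side. For a typical gene, an interaction smaller than 0.72 could not be told from 0 even without adjustment. The adjusted test needed a larger one. Some estimates were larger, and 838 genes had an interaction above 1 in size, though none passed.

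The count of 0 depended on how the arrays were modelled. Same-numbered mutant and wild-type arrays deviated together from their group means in bcCML and not in AML. With the replicate number as a block in bcCML only, a fit added after the data were seen, 12 genes passed, among them Galnt7, Tubb2a, Myo7a, Fcgr3, Fbp1 and Pnpla8 at adjusted p values of 0.0379 to 0.0482. A block within each leukaemia, or one shared by both, gave 0. Leaving out 1 array gave 11 genes without AML wild-type replicate 2, 7 without AML wild-type replicate 3, 4 without AML mutant replicate 2, 3 without bcCML mutant replicate 1, 2 without bcCML mutant replicate 2 and 1 without bcCML mutant replicate 3. The other 6 left-out fits gave 0, including the one without the AML mutant array that stood apart, which had 884 genes at an unadjusted p under 0.05. Genes below are therefore described by their values on each array, and a gene is said to have risen or fallen only in a single leukaemia where that contrast passed.

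In the single contrasts, 7 measurable genes (0.0724%) were called in bcCML and 124 (1.28%) in AML, against 15 (0.139%) and 164 (1.52%) over all genes tested. Msi2 and Tubd1 were called in both. The 103 genes that fell in AML mutants had a median difference of -0.12 in bcCML and -1.39 in AML, and 91 of them had a positive interaction at an unadjusted p under 0.05. The 21 genes that rose in AML mutants had medians of 0.12 in bcCML and 1.27 in AML, and 17 had a negative interaction at that level. The 6 that fell in bcCML mutants had medians of -2.57 in bcCML and -0.10 in AML. These sets were picked by 1 of the 2 differences that make up the interaction, so its sign in them is partly fixed by the choice. Among the 500 positive interactions at an unadjusted p under 0.05, the 2 estimates had opposite signs in 370 (74.0%) and the AML difference was larger in size in 400. Among the 336 negative ones the signs were opposite in 289 (86.0%) and the AML difference was larger in size in 162. Over all measurable genes, the signs were opposite in 4398 (45.5%) and the AML difference was larger in size in 5232 (54.1%). Choosing genes by a large difference between 2 estimates favours opposite signs, so the higher shares follow at least in part from that choice.

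**Figure D1:**
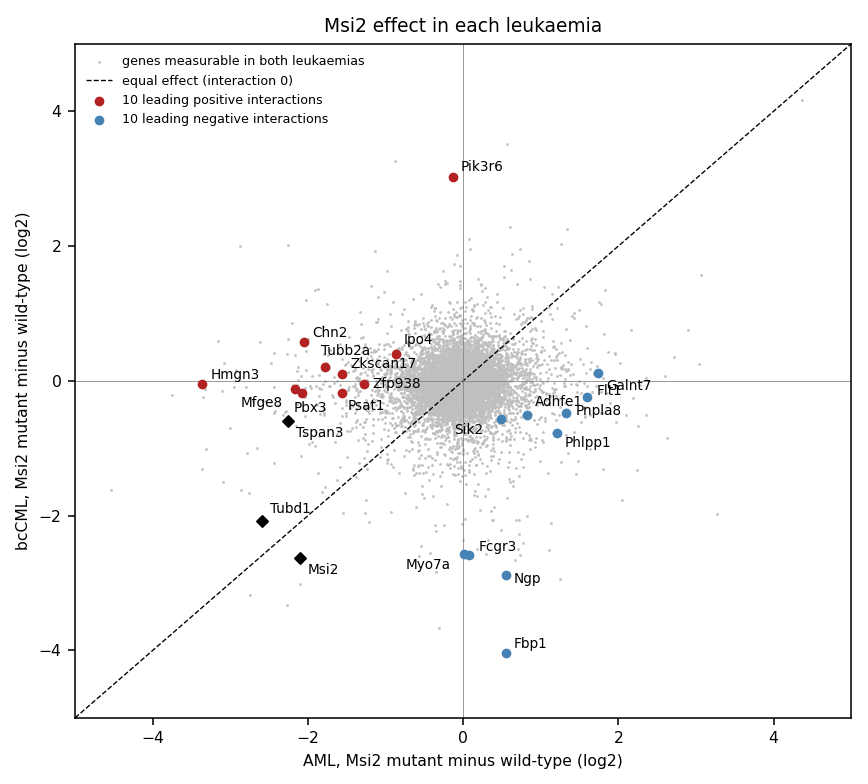
Each point is 1 of the 9663 measurable genes, with its Msi2 mutant minus wild-type log2 difference in AML on the x axis and in bcCML on the y axis. On the dashed line both differences are equal. The 10 positive (red) and 10 negative (blue) interactions with the smallest p lie off it, most of them along 1 axis, while Msi2 and Tubd1 (black) lie low in both leukaemias.

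The targeted gene checks the labels. On its brightest probe set, Msi2 read 487, 721 and 608 units in bcCML mutants against 2583, 4319 and 4579 in bcCML wild-type. AML mutants read 52.9, 69.1 and 86.9 against 325, 181 and 430.3 in AML wild-type. All mutant arrays lay below their wild-type arrays, and on the log2 scale Msi2 fell by 2.63 in bcCML mutants (adjusted p = 0.02) and fell by 2.11 in AML mutants (adjusted p = 0.0211). The interaction on this probe set was -0.53 ± 0.48 (SE; adjusted p = 0.777), between -0.80 without AML wild-type replicate 3 and -0.18 without AML wild-type replicate 2.

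The other Msi2 probe sets gave different interactions. On the probe set with the smallest p, bcCML mutants read 891, 1403 and 1584 units against 2123, 3209 and 3342 in bcCML wild-type. AML mutants read 10.2, 10.9 and 9.53, all below 16 units, against 291, 131 and 259 in AML wild-type. RNA under this probe set was lower by 1.18 on the log2 scale in bcCML mutants and at least 13.4-fold lower in AML mutants. The interaction was at least 2.57. The fitted value of 3.22 had an unadjusted p of 2.86e-05 from limma over 12 arrays, and an adjusted p of 0.0588 over all probe sets. Another probe set read 580, 1041 and 1111 units in bcCML mutants against 2655, 5110 and 4489 in bcCML wild-type, and 6.73, 17.3 and 17.8 in AML mutants against 449, 147 and 332 in AML wild-type, an interaction of 2.29. Of the remaining pair, one gave -0.01, and the other, with all AML mutant arrays below 16 units, gave a fitted 0.56 that became -0.17 with those arrays set at 16. How much of the Msi2 transcript was left in each leukaemia thus differed by probe set, and its interaction changed sign between them.

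Tubd1, a delta-tubulin encoded on chromosome 11 like Msi2, read 18.7, 26.7 and 34.3 units in bcCML mutants against 72.1, 141 and 126 in bcCML wild-type. AML mutants read 20.8, 21.3 and 16.9 against 131, 152 and 81.8 in AML wild-type. It fell in both leukaemias, with an interaction of 0.51 ± 0.45 (adjusted p = 0.77), between 0.22 without bcCML wild-type replicate 1 and 0.77 without AML wild-type replicate 3. Msi1, the other Musashi gene, read 29.7, 11.9 and 17.01 units in bcCML mutants against 28.4, 15 and 38.3 in bcCML wild-type, and 168, 66.6 and 57.5 in AML mutants against 29.8, 13.2 and 38.3 in AML wild-type. Only the AML mutant arrays stood clear of their wild-type arrays, with an interaction of -2.29 ± 0.78 (adjusted p = 0.392). Tspan3, a tetraspanin membrane protein known from work on Msi2 in AML, read 143, 185 and 219.6 units in bcCML mutants against 246, 310.1 and 266 in bcCML wild-type. AML mutants read 6.92, 20.6 and 30.3 against 74.9, 109 and 57.9 in AML wild-type. The mutant arrays lay below the wild-type arrays in both leukaemias, Tspan3 fell only in the AML test (adjusted p = 0.0445, against 0.792 in bcCML), and the interaction of 1.66 ± 0.65 did not pass (adjusted p = 0.456) and was 1.04 without AML mutant replicate 1.

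The genes named by their small interaction p-values are described in 3 kinds, each followed by genes from the fixed set or the lists that had the same layout and larger p-values (Angpt1, Il3ra, Vegfa, Dock1 and Hoxb4). The first kind were genes that were lower in AML mutants and little different in bcCML. Tubb2a, a beta-tubulin of microtubules, read 375, 355 and 378 units in bcCML mutants against 299.7, 329 and 333 in bcCML wild-type. AML mutants read 249, 339 and 193 against 874, 963 and 791 in AML wild-type. It fell in AML mutants by 1.78 (adjusted p = 0.00304), was 0.21 ± 0.19 in bcCML, and had an interaction of 1.99 (95% confidence interval 1.40 to 2.58; adjusted p = 0.0514). Hmgn3, a nucleosome-binding protein, read 2995, 3692 and 3864 units in bcCML mutants against 2812, 4430.3 and 3819.8 in bcCML wild-type. AML mutants read 17.99, 20.2 and 8.88, with 2 arrays just above 16 units, against 201, 96.9 and 179 in AML wild-type. The gene was bright and overlapping between the bcCML groups and fell in AML mutants (adjusted p = 0.00304), giving an interaction of 3.31 ± 0.50 (adjusted p = 0.0613). Since the AML mutant values lie near or below 16 units, that size is not fixed. It was 2.38 at the lowest among the alternative settings, and a second probe set, which did not meet the rule, gave 1.81.

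Pbx3, a homeodomain cofactor of Hox proteins, read 3607, 3149 and 3825 units in bcCML mutants against 4046, 3886 and 3998 in bcCML wild-type. AML mutants read 927, 536 and 617 against 3334, 1983 and 3519 in AML wild-type. The bcCML mutant arrays lay slightly below the bcCML wild-type arrays, the AML mutants far below theirs, and the gene fell in AML mutants by 2.08 (adjusted p = 0.00514; interaction 1.90 ± 0.35, adjusted p = 0.107). Psat1, an enzyme of serine synthesis, read 11615, 15129 and 12214 units in bcCML mutants against 14823, 15459 and 13511 in bcCML wild-type. AML mutants read 4308, 4088 and 5111 against 15338, 10728 and 14034 in AML wild-type. The gene fell in AML mutants (adjusted p = 0.00414), and both bcCML groups overlapped the wild-type AML level. Chn2, which encodes beta-chimaerin, a protein that switches off Rac, read 213, 128 and 166 units in bcCML mutants against 92.2, 131 and 115 in bcCML wild-type. AML mutants read 27.6, 22.3 and 33.9 against 97.3, 169 and 89.2 in AML wild-type, and the gene fell there (adjusted p = 0.0116; interaction 2.62 ± 0.40).

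Mfge8, a secreted bridge between dying cells and phagocytes, read 205, 225 and 290.3 units in bcCML mutants against 225, 263 and 292 in bcCML wild-type. AML mutants read 35.2, 32.6 and 29.5 against 128, 115 and 207 in AML wild-type. The gene fell in AML mutants by 2.16 on the log2 scale and its bcCML groups overlapped (interaction 2.04 ± 0.32, adjusted p = 0.0613). The zinc finger genes Zkscan17 and Zfp938 followed the same layout, with interactions of 1.67 and 1.23, and both fell in AML mutants. Angpt1, the angiopoietin that signals to the Tie2 receptor of stem cells and endothelium, read 1086, 807 and 926 units in bcCML mutants against 645, 801 and 914 in bcCML wild-type. AML mutants read 107, 35.3 and 20.3 against 599, 194 and 399.8 in AML wild-type. The AML arrays did not overlap, the bcCML arrays did, and the interaction was 3.34 ± 0.78 (adjusted p = 0.187). Il3ra, the alpha chain of the interleukin-3 receptor, fell in AML mutants (59.3, 88.8 and 109 units against 316, 371 and 246 in AML wild-type), with 75.7, 67.3 and 118 units in bcCML mutants against 107, 121 and 97.8 in bcCML wild-type and an interaction of 1.53 (adjusted p = 0.218).

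The second kind were higher in AML mutants and little different or lower in bcCML. Galnt7, an enzyme that adds sugars to mucin-type glycoproteins, read 1353, 995 and 1053 units in bcCML mutants against 1062, 1053 and 992 in bcCML wild-type. AML mutants read 1161, 1012 and 1062 against 304, 318 and 349 in AML wild-type. Wild-type AML was the only group below the common level, the gene rose in AML mutants by 1.74 (adjusted p = 0.00193), and the interaction was -1.62 (95% confidence interval -2.07 to -1.17; adjusted p = 0.0514). Its 3 probe sets gave interactions of -1.62, -2.47 and -2.56. Flt1, a receptor for vascular endothelial growth factor, read 27.7, 24.4 and 32.1 units in bcCML mutants against 30.5, 30.9 and 37.6 in bcCML wild-type. AML mutants read 392, 298 and 450.3 against 162, 113 and 104 in AML wild-type, and Flt1 rose there (adjusted p = 0.00969; interaction -1.83 ± 0.30, adjusted p = 0.0677). Vegfa, which encodes a ligand of that receptor, read 173, 133 and 177 units in bcCML mutants against 129.8, 133 and 155 in bcCML wild-type. AML mutants read 352, 259.8 and 387 against 146, 171 and 101 in AML wild-type, and Vegfa also rose there (adjusted p = 0.0281), with an interaction of -1.07 ± 0.32 (adjusted p = 0.323). Receptor and ligand thus had the same sign of interaction.

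Pnpla8, a phospholipase of intracellular membranes, rose in AML mutants (368, 322 and 334 units against 128, 123 and 159 in AML wild-type) and read 165, 86.1 and 150 units in bcCML mutants against 195, 163 and 182 in bcCML wild-type. The bcCML arrays overlapped, and the interaction was -1.81 ± 0.32 (adjusted p = 0.0912). Dock1, an activator of Rac, rose in AML mutants (839, 556 and 544 units against 51.3, 205 and 44.1 in AML wild-type) with 428, 585 and 815 units in bcCML mutants against 249, 861 and 570 in bcCML wild-type. Its bcCML arrays and its AML wild-type arrays both spread widely, and the interaction of -2.79 ± 0.85 had an adjusted p of 0.33. Hoxb4, a Hox gene known for expanding stem cells, rose in AML mutants (303, 184 and 208 units against 50.1, 63.8 and 134 in AML wild-type) and read 448, 562 and 599 units in bcCML mutants against 496, 539 and 438 in bcCML wild-type, an interaction of -1.47 ± 0.47 (adjusted p = 0.366).

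The third kind differed in bcCML and not in AML. Fbp1, the fructose bisphosphatase of gluconeogenesis, read 7.26, 10.2 and 25.2 units in bcCML mutants, 1 of them above 16 units, against 146, 242 and 237 in bcCML wild-type. AML mutants read 3167, 1109 and 1536 against 1354, 779.5 and 1628 in AML wild-type. The gene was bright and overlapping in AML and fell in bcCML mutants (adjusted p = 0.0185), with a fitted interaction of -4.60 ± 0.73 (adjusted p = 0.0613). Since 2 of its mutant values lie below 16 units, that size is not fixed, and it was -3.45 with a pseudocount of 16. Myo7a, an unconventional myosin, read 29.3, 31.1 and 62.5 units in bcCML mutants against 198, 273 and 217 in bcCML wild-type. AML mutants read 1006, 1017 and 775 against 930.3, 863 and 962 in AML wild-type. It fell in bcCML mutants (adjusted p = 0.00808) beside an AML difference of 0.01 ± 0.27, with an interaction of -2.58 (95% confidence interval -3.43 to -1.73; adjusted p = 0.0613).

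Fcgr3, a low-affinity receptor for immunoglobulin G on myeloid cells, read 337, 486 and 223 units in bcCML mutants against 2941, 2235 and 1202 in bcCML wild-type. AML mutants read 6663, 9367 and 7748 against 8991, 5724 and 7986 in AML wild-type. It fell in bcCML mutants (adjusted p = 0.0314) and its AML groups overlapped (interaction -2.66 ± 0.51, adjusted p = 0.116). Pik3r6, a regulatory subunit of phosphoinositide 3-kinase gamma, ran the other way. It read 68.6, 60.9 and 41.2 units in bcCML mutants against 4.94, 11.8 and 5.40, all below 16 units, in bcCML wild-type, and was at least 3.48-fold higher in the mutants (adjusted p = 0.0184). AML mutants read 469, 813 and 472 against 442, 758 and 708 in AML wild-type. The interaction was at least 1.93, and the fitted value of 3.17 had an adjusted p of 0.0731. Pik3r6 was the only measurable gene called higher in bcCML mutants, but it met the rule in bcCML only through those mutant arrays. Like Msi2, it lies on chromosome 11. For most other genes described the chromosome is not given, so they are not thereby placed elsewhere.

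**Figure D2:**
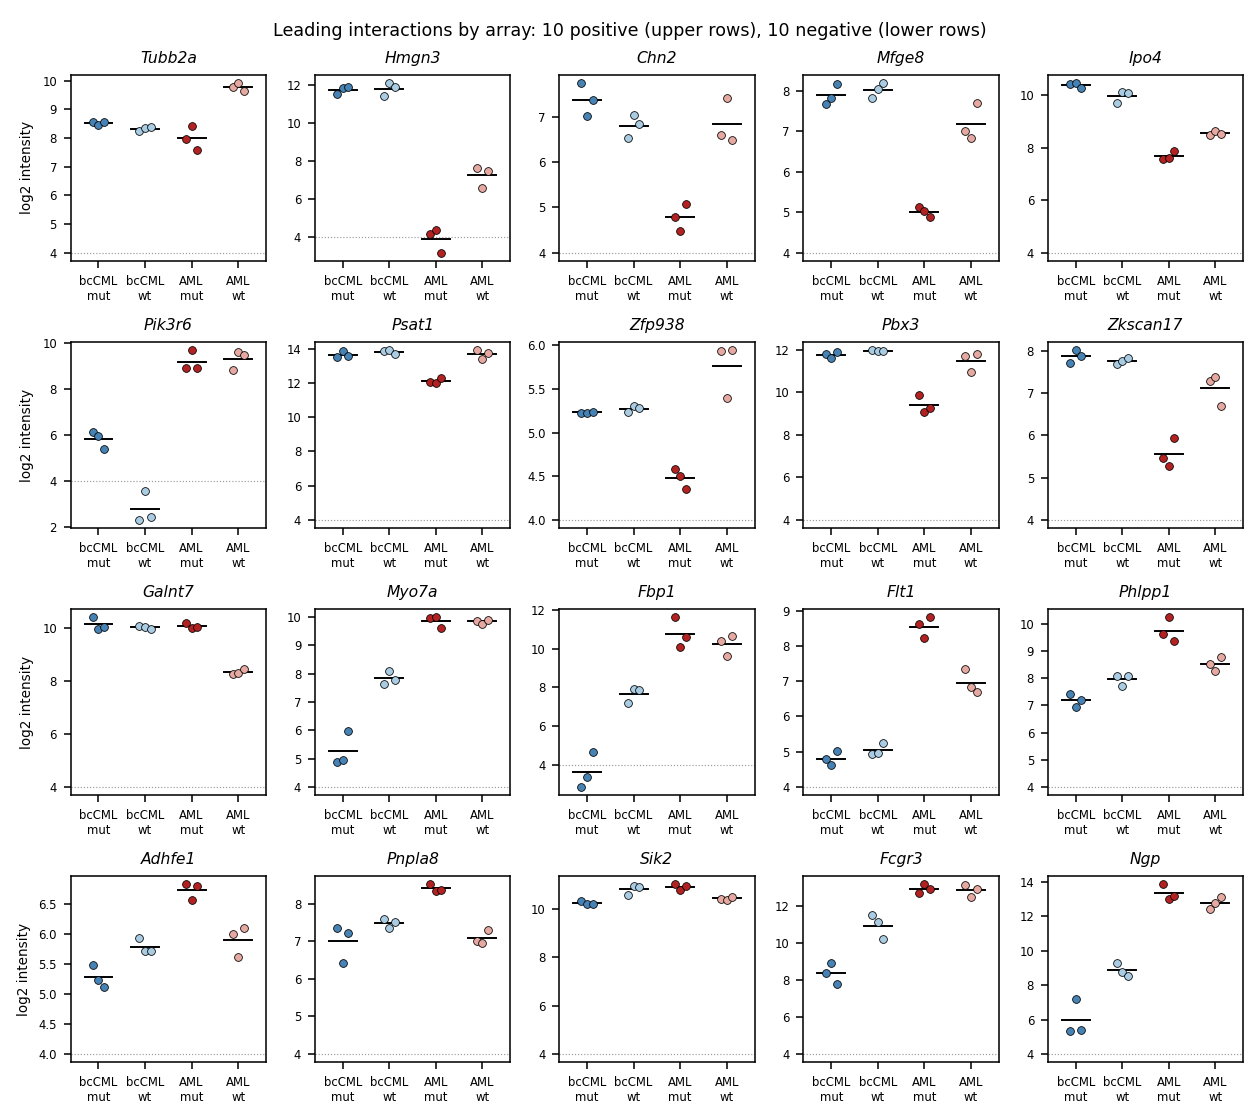
Log2 intensity on each array (points) and group mean (bar) for the 10 positive and 10 negative interactions with the smallest p, with the dotted line at log2 of 4. For most genes of the upper 2 rows the AML mutants stand alone at the low end, while in the lower rows the group that stands apart within its leukaemia is AML wild-type for Galnt7 and bcCML mutant for Fbp1, Myo7a, Fcgr3 and Ngp.

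A stricter reading asks for genes whose mutant arrays all lay on opposite sides of the wild-type arrays in the 2 leukaemias. This held for 78 measurable genes (0.807%), against 88 (0.814%) of all genes tested. They split evenly, with 39 higher in bcCML mutants and lower in AML mutants and 39 the other way round. Mutant and wild-type arrays were apart in the same direction in both leukaemias for 214 genes (2.21%), against 222 (2.05%) of all genes tested. None of the 78 passed the adjusted interaction test. An unadjusted p under 0.05 was found for 75, but groups apart in opposite directions had to give a large interaction, so that count follows from the choice.

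Ipo4, an importin that carries ribosomal proteins and histones into the nucleus, read 1361, 1401 and 1234 units in bcCML mutants against 836, 1110.2 and 1094 in bcCML wild-type. AML mutants read 187, 194 and 233 against 361, 392 and 365 in AML wild-type. It fell in AML mutants (adjusted p = 0.0248), was 0.40 ± 0.15 in bcCML, and had an interaction of 1.27 ± 0.21 (adjusted p = 0.0677). Tubb2a, described above, was of the same kind. Abcb1b, a P-glycoprotein that pumps drugs out of cells, read 305, 387 and 316 units in bcCML mutants against 203, 299 and 277 in bcCML wild-type. AML mutants read 5.44, 10.7 and 11.7, all below 16 units, against 44.2, 24.6 and 56.98 in AML wild-type, at least 2.47-fold lower (adjusted p = 0.0211), and the interaction was at least 1.69. Ak1, an adenylate kinase, read 329, 286 and 1072 units in bcCML mutants, 1 array far above the others, against 172, 201 and 239 in bcCML wild-type. AML mutants read 12.7, 8.66 and 9.23, all below 16 units, against 36.6, 31.9 and 59.1 in AML wild-type. The interaction was at least 2.56, and the fitted value of 3.23 had an adjusted p of 0.116. Abcb1b and Ak1 met the rule in AML only through the wild-type arrays, so their AML differences are not independent of it.

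In the other direction, Phlpp1, a phosphatase that removes an activating phosphate from Akt, read 170.1, 123 and 146 units in bcCML mutants against 271, 211 and 272 in bcCML wild-type. AML mutants read 787, 1211 and 653 against 364, 310.1 and 443 in AML wild-type. It rose in AML mutants (adjusted p = 0.0409), and the bcCML difference of -0.78 ± 0.24 did not pass (adjusted p = 0.422; interaction -1.99 ± 0.34, adjusted p = 0.078). Adhfe1, a mitochondrial transhydrogenase, read 44.6, 37.7 and 34.5 units in bcCML mutants against 60.7, 52.7 and 52.5 in bcCML wild-type, and rose in AML mutants at 113, 94.02 and 111 against 63.6, 48.97 and 67.98 in AML wild-type (interaction -1.34 ± 0.23). Sik2, a kinase of the salt-inducible family, read 1289.7, 1204 and 1192 units in bcCML mutants against 1523, 2012 and 1947 in bcCML wild-type, and 2095, 1781 and 1991 in AML mutants against 1393, 1346 and 1443 in AML wild-type. Neither Sik2 contrast passed on its own, and the interaction was -1.05 ± 0.19. Tnfrsf21 (death receptor 6, interaction -0.95), Ndfip2 (an adaptor of Nedd4 ubiquitin ligases, -1.22) and Tspoap1 (-2.46) had the same layout, and none of their single contrasts passed either. The opposite signs depended on the probe set for some genes. A second probe set gave 0.08 in bcCML and 0.37 in AML for Adhfe1, and 0.06 and 0.88 for Ndfip2. A dim one of Tnfrsf21, which did not meet the rule, gave 0.11 and 0.29. Second probe sets of Tubb2a, Ipo4 and Sik2 kept opposite signs.

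**Figure D3:**
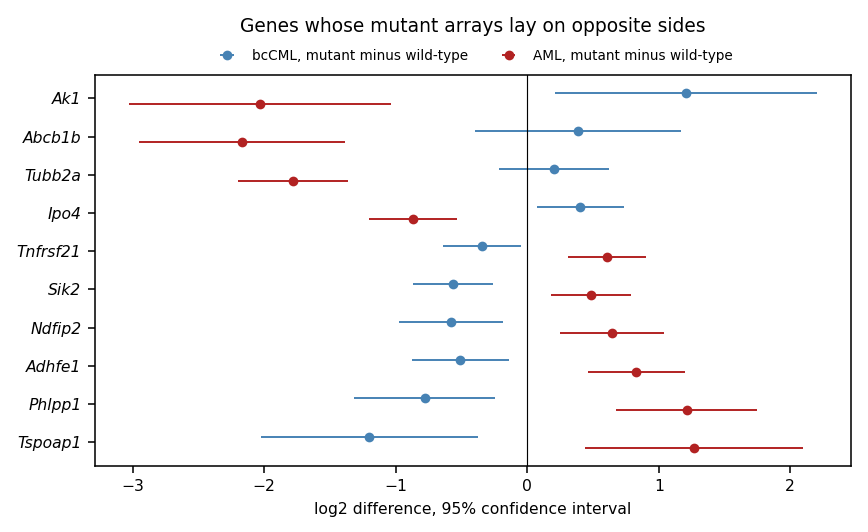
Msi2 mutant minus wild-type log2 difference with its 95% confidence interval in bcCML (blue) and AML (red), for the 10 opposite-direction genes with the smallest interaction p. The differences lie on opposite sides of 0 for every gene, and the bcCML intervals of Abcb1b and Tubb2a include 0. Values below 16 units in AML mutants make the AML difference of Ak1 and Abcb1b a fitted value.

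Gene lists were then described by counts and medians. No member of any of the 36 lists with at least 5 measurable genes passed the adjusted interaction test. The medians were positive in 18 lists and negative in 18, or positive in 13 with the mean of a gene's probe sets. Leaving out 1 array turned the sign of the median in 14 of the 36 lists. These counts stand beside a median interaction of 0.04 over all measurable genes, of which 54.1% were positive.

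Neutrophil granule genes had the most negative medians among the lists of at least 10 genes. Primary granule genes, made at the promyelocyte stage, were negative in 17 of 18 members with a median interaction of -1.24, from medians of -0.94 in bcCML and 0.47 in AML. In the negative direction 8 of the 18 (44.4%) had an unadjusted p under 0.05, where 3.48% of measurable genes did, and 0 were called in bcCML or AML alone. The mean log2 level of the list, relative to all arrays, was -1.57, -1.19 and -2.46 on bcCML mutant arrays against -0.65, -0.29 and -1.46 on bcCML wild-type arrays. AML mutant arrays lay at 1.40, 1.57 and 1.62 against 1.19, 1.35 and 0.50 on AML wild-type arrays. The bcCML groups overlapped, each bcCML mutant array lay below the wild-type array of its own number, and the AML groups did not overlap. Leaving out 1 array moved the median interaction between -1.81 and -0.97.

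Elane, neutrophil elastase, read 206, 621 and 118 units in bcCML mutants against 2066, 1709 and 280.4 in bcCML wild-type. AML mutants read 29066, 28651 and 26459 against 16788, 23888 and 9850.4 in AML wild-type. The AML groups were apart and the bcCML groups overlapped, with an interaction of -2.84 ± 1.09 (adjusted p = 0.438). Prtn3, proteinase 3, had an interaction of -2.05 ± 0.68 and Ctsg, cathepsin G, one of -2.44 ± 0.89. Mpo, myeloperoxidase, read 6635, 7358 and 1569 units in bcCML mutants against 10896, 8486 and 3319 in bcCML wild-type, and 26863, 25129 and 24771 in AML mutants against 5900.2, 17242 and 1528 in AML wild-type. Wild-type replicate 3 was the lowest wild-type array of each leukaemia, and the interaction of -2.92 ± 1.20 rested on wide groups (adjusted p = 0.488).

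Secondary and tertiary granule genes, made later in neutrophil maturation, were negative in 14 of 16 with a median of -0.80 (bcCML -0.34, AML 0.35). At an unadjusted p under 0.05, 6 of the 16 (37.5%) were negative and 1 (6.25%) was positive, beside 3.48% and 5.17% of measurable genes, so that the positive share was near the background. Their level was -2.33, -2.24 and -3.02 on bcCML mutant arrays against -1.68, -1.16 and -2.23 on bcCML wild-type arrays, and 2.15, 2.26 and 2.03 on AML mutant arrays against 1.97, 2.01 and 2.24 on AML wild-type arrays. Every bcCML mutant array lay below all bcCML wild-type arrays, by little for 2 of them, and the AML groups overlapped. Ngp, neutrophilic granule protein, read 40.2, 148 and 42.2 units in bcCML mutants against 635, 437 and 362 in bcCML wild-type. AML mutants read 14806, 8154 and 9249.9 against 5520.3, 7114 and 8965 in AML wild-type. Its bcCML arrays were far apart, the bcCML contrast reached an adjusted p of 0.066, and the interaction was -3.43 ± 0.67 (adjusted p = 0.116). The exception was Wfdc17, which fell in AML mutants (101, 829.7 and 201 units against 2781, 10330.3 and 7284 in AML wild-type) and read 69.3, 13.3 and 41.8 units in bcCML mutants against 71.3, 174 and 90.5 in bcCML wild-type, an interaction of 2.91 ± 1.19.

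Interferon response genes lay on the positive side. Of 43 members, 38 were positive with a median interaction of 0.78, from medians of 0.55 in bcCML and -0.20 in AML, and 5 (11.6%) had an unadjusted p under 0.05, where 5.17% of measurable genes did in that direction. The list level was 0.08, 0.34 and 0.63 on bcCML mutant arrays against -0.54, -0.15 and -0.18 on bcCML wild-type arrays. AML mutant arrays lay at -0.42, 0.25 and -0.14 against -0.34, 1.06 and -0.59 on AML wild-type arrays. In bcCML every mutant array lay above every wild-type array, while in AML the groups overlapped and wild-type replicate 2 stood far above the rest. Without that array the median interaction was 0.32. Xaf1, a partner of the apoptosis inhibitor XIAP, read 301, 329.7 and 486 units in bcCML mutants against 129, 169 and 149.8 in bcCML wild-type, and 169.9, 392 and 221 in AML mutants against 218, 936 and 221 in AML wild-type. The interaction of Xaf1 was 1.83 ± 0.74 (adjusted p = 0.472), or 1.13 without AML wild-type replicate 2, and that of Bst2, the tetherin that holds budding viruses at the cell surface, 1.40 ± 0.54. Ifi27l2a, an interferon-induced gene with the list's highest interaction, read 467, 174 and 1259 units in bcCML mutants against 56.5, 12.6 and 96.3 in bcCML wild-type, apart in bcCML, and 334, 4172 and 907 in AML mutants against 711, 1848 and 296 in AML wild-type, overlapping in AML (interaction 2.95 ± 1.58).

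Many genes of this kind are known to respond through the interferon-stimulated response element, whose core is a pair of GAAA letters set 2 bases apart (GAAANNGAAA, searched on both strands). In the 250 bases before the start site in RefSeq's GRCm38.p6 table, it was found for 12 of the 35 members with a promoter entry (34.3%), against 3.16% of 7951 measurable genes and 2.98% of all 32851 windows. A match is a description of the letters and shows no binding. The list was made of known interferon response genes, so its share of matches is not a result about the interaction. The 3 members with a match and the smallest interaction p are shown with the match in capitals: Bst2 (chr8:71537473-71537722, minus strand, interaction 1.40), Igtp (chr11:58199306-58199555, plus strand, 1.09), an immunity-related GTPase, and Trim30a (chr7:104465194-104465443, minus strand, 0.78), of the tripartite motif family. The first match starts 130, 34 and 36 bases before the start site. Bst2 holds 2 matches that overlap, shown as 1 run of capitals, and in Trim30a the match lies on the opposite strand. The other Trim30a window held no match. The unadjusted interaction p from limma was 0.026 for Bst2, 0.143 for Igtp and 0.159 for Trim30a. Xaf1, Psmb10, Ifi35 and Psmb8, which like Bst2 had an unadjusted p under 0.05, had no match.
Bst2: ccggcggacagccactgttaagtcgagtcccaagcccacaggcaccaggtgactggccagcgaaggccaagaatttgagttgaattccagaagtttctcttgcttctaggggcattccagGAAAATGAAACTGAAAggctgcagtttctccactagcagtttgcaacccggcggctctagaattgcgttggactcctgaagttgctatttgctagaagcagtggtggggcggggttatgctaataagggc
Igtp: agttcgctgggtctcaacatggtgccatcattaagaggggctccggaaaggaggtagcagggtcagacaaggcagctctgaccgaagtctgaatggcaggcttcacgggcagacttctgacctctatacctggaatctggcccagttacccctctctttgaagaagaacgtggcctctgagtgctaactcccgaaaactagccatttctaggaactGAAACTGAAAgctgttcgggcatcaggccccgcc
Trim30a: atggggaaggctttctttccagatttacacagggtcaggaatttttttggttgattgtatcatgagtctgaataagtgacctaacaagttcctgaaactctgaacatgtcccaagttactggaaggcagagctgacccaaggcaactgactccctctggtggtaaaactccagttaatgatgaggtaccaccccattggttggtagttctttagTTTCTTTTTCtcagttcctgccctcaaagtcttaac

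The dendritic cell and MHC class II list, which shares 2 of its 10 measurable genes with other lists, was positive in 9 with a median of 1.49 (bcCML 0.53, AML -0.68). Its level was -1.25, 0.61 and 0.41 on bcCML mutant arrays against -1.20, -0.47 and 0.10 on bcCML wild-type arrays, and -0.46, 0.33 and -0.10 on AML mutant arrays against 0.35, 1.44 and 0.26 on AML wild-type arrays. The bcCML groups overlapped, as did the AML groups. The median interaction was 0.74 without bcCML wild-type replicate 1, 0.76 without AML wild-type replicate 2 and 0.87 without bcCML mutant replicate 2. H2-DMa, which loads peptides onto class II molecules, read 505, 314 and 509.8 units in bcCML mutants against 409, 631 and 638 in bcCML wild-type, and 1179, 1551 and 972 in AML mutants against 2842, 2886 and 2582 in AML wild-type (interaction 0.85 ± 0.36). The monocyte list was mixed, with 4 of 9 genes positive and a median interaction of -0.54. Its single medians, 0.13 in bcCML and -0.30 in AML, differ in the opposite direction to that value. Its level on AML mutant replicate 1 was -0.31 against 0.98 to 2.12 on the other AML arrays. Leaving out 1 array moved the median interaction between -0.93 and 0.06, the highest value without AML mutant replicate 2 or bcCML wild-type replicate 2. Whether these cell-type genes had a part in the other interactions was not tested.

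Nucleolar and ribosome assembly genes were mostly positive. Of 64, 55 were positive with a median of 0.27, from medians of -0.14 in bcCML and -0.37 in AML, and 10 (15.6%) had an unadjusted p under 0.05, all positive, where 5.17% of measurable genes did. Their level was 0.19, 0.48 and 0.28 on bcCML mutant arrays against 0.45, 0.44 and 0.42 on bcCML wild-type arrays. AML mutant arrays lay at -0.67, -0.62 and -0.48 against -0.07, -0.18 and -0.25 on AML wild-type arrays. The AML groups did not overlap, the bcCML groups did, and leaving out any 1 array kept the median between 0.21 and 0.35. Polr1e, a subunit of RNA polymerase I, read 1494, 1697 and 1744 units in bcCML mutants against 1161, 1458 and 1603 in bcCML wild-type. AML mutants read 275, 373 and 425 against 719, 669.7 and 787 in AML wild-type, and it fell there (adjusted p = 0.029; interaction 1.28 ± 0.26, adjusted p = 0.138). Rcl1, which acts in processing of the small-subunit ribosomal RNA, and Rrp12 also fell in AML mutants, with interactions of 1.26 ± 0.30 and 1.04 ± 0.30. The metabolic Myc target list, which holds Ipo4, had a median of 0.33 over 28 genes (21 positive, 5 of the 28, or 17.9%, at an unadjusted p under 0.05, beside 5.17% of measurable genes), while Myc itself had an interaction of -0.33 ± 0.65. The E-box CACGTG, a binding sequence of Myc read on both strands, was found in the 250 bases before the start site of 3 of 56 nucleolar genes (5.36%) and of 10.2% of measurable genes. Sequence outside that window was not searched, and whether Myc had a part in these interactions was not tested.

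Other biosynthetic lists were also mostly positive. Cytosolic ribosomal proteins were positive in 35 of 40 with a median of 0.08, or 0.050 without AML mutant replicate 2, and none at an unadjusted p under 0.05. Oxidative phosphorylation genes were positive in 50 of 70 with a median of 0.09, between 0.036 without AML wild-type replicate 2 and 0.17 without bcCML mutant replicate 1, and Ndufv1, a subunit of complex I, fell in AML mutants (adjusted p = 0.0206; interaction 0.61 ± 0.18). Cholesterol and fatty acid genes were positive in 25 of 29 with a median of 0.33. Fads1, a fatty acid desaturase, read 297, 269.8 and 229 units in bcCML mutants against 375, 359 and 256 in bcCML wild-type. AML mutants read 7.62, 7.60 and 10.3, all below 16 units, against 75.2, 54.99 and 29.1 in AML wild-type, at least 3.08-fold lower (adjusted p = 0.00552), with an interaction of at least 1.32. Elovl6, an elongase that acts on fatty acids, was at least 2.77-fold lower in AML mutants (5.77, 7.59 and 5.92 units against 39.9, 65.7 and 33.1 in AML wild-type), with 272, 569 and 800.3 units in bcCML mutants against 433, 626 and 558 in bcCML wild-type. Fads1 and Elovl6 met the rule in AML only through the wild-type arrays, so their AML differences are not independent of it. Mitosis genes were positive in 43 of 53 with a median of 0.20, but leaving out 1 array moved that median between -0.00086, without AML mutant replicate 2, and 0.57, without AML mutant replicate 1.

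**Figure D4:**
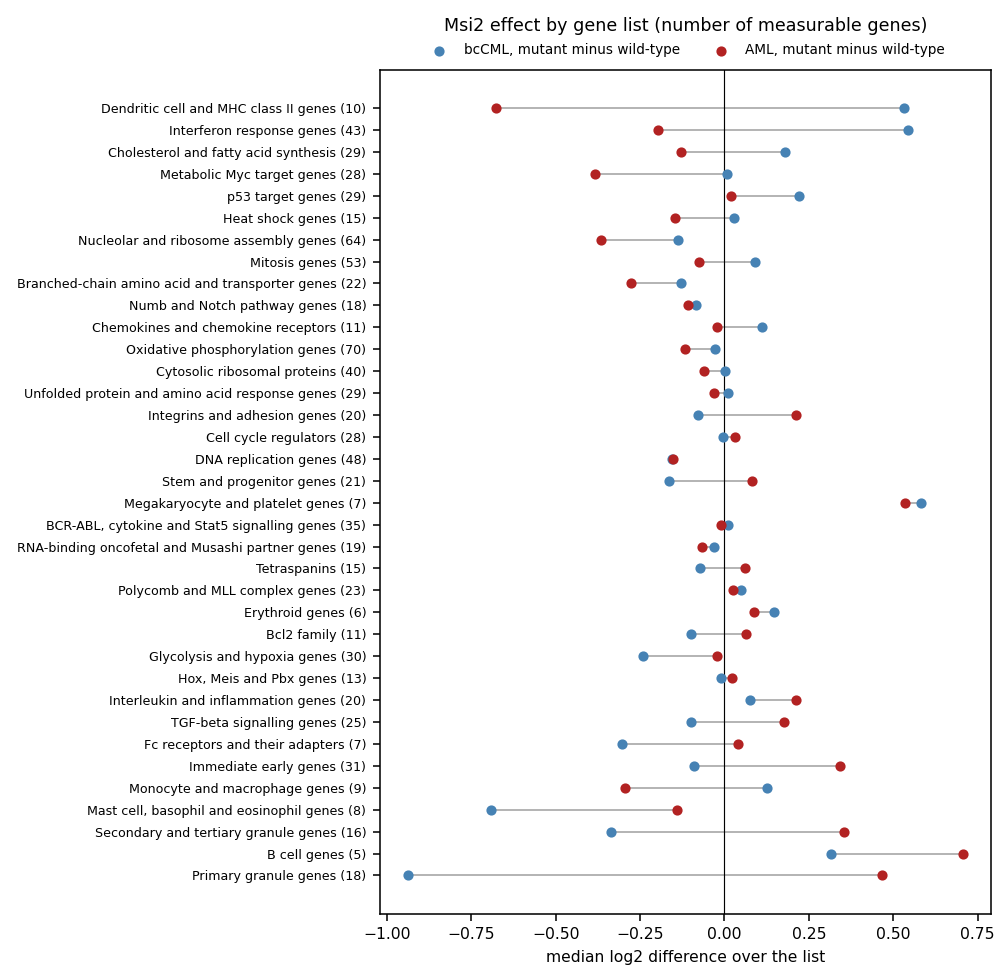
Median Msi2 mutant minus wild-type log2 difference in bcCML (blue) and AML (red) over the measurable members of each list, ordered by the median interaction, with the number of members in brackets. The dendritic cell, interferon and both granule lists have bcCML and AML medians on opposite sides of 0. So do many other lists, such as the TGF-beta and cholesterol lists, whereas nucleolar genes have both medians below 0.

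**Figure D5:**
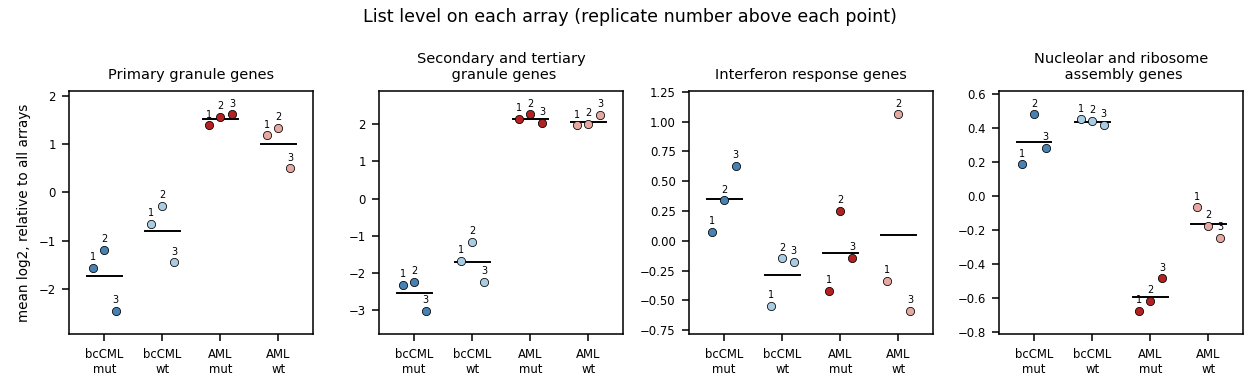
Mean log2 level of 4 lists on each array, relative to the mean of all 12 arrays, with the replicate number above each point and the group mean as a bar. Wild-type AML replicate 2 is the high interferon array, and the bcCML mutant array of replicate 3 is the lowest in both granule lists.

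Genes of the leukaemic programme itself gave small or mixed interactions. In the Hox, Meis and Pbx list, 2 of 13 (15.4%) were positive and 1 (7.69%) negative at an unadjusted p under 0.05, beside 5.17% and 3.48% of measurable genes. The median was -0.22, and -0.075 without AML mutant replicate 1. Hoxa9 read 3992, 3352 and 3786 units in bcCML mutants against 4785, 4087 and 3668 in bcCML wild-type, and 4447, 4289 and 4527 in AML mutants against 3810.3, 4906 and 4138 in AML wild-type. Its interaction was -0.22 (95% confidence interval -0.68 to 0.24), and that of its cofactor Meis1 was 0.57 ± 0.26 (SE). Stem and progenitor genes had a median of 0.01 over 21, between -0.15 without AML mutant replicate 1 and 0.15 without AML mutant replicate 3. Within that list Lmo2, a partner of stem cell transcription factors, read 6202, 5131 and 5063 units in bcCML mutants against 3616, 3355 and 3899 in bcCML wild-type, and 10060.1, 9351 and 9952 in AML mutants against 11385, 10473 and 11433 in AML wild-type. Its groups were apart in both leukaemias, in opposite directions (interaction 0.77 ± 0.18, adjusted p = 0.181). Cd34, a surface protein of progenitors, read 1363, 685 and 507 units in bcCML mutants against 1047, 813 and 1039 in bcCML wild-type, and 312, 101 and 101 in AML mutants against 1602, 304 and 1800.3 in AML wild-type, overlapping in both leukaemias (interaction 2.40 ± 0.97).

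The gate marker Kit had an interaction of -0.91 ± 0.84, with groups that overlapped in both leukaemias. The receptor tyrosine kinase Flt3 had one of 1.59 ± 1.10, the chemokine receptor Cxcr4 0.13 ± 0.29, the transcription factor Sox4 1.05 ± 0.65, and the surface protein Cd93 0.70 ± 0.39. Single arrays moved several of these. Leaving out 1 array gave -1.29 (bcCML mutant replicate 1) to -0.26 (bcCML wild-type replicate 1) for Kit and 0.84 (AML mutant replicate 2) to 2.41 (AML mutant replicate 1) for Flt3. It gave 0.47 (bcCML mutant replicate 2) to 1.53 (bcCML mutant replicate 1) for Sox4, 0.51 (bcCML wild-type replicate 1) to 1.06 (bcCML wild-type replicate 2) for Cd93 and -0.078 (bcCML mutant replicate 1) to 0.31 (bcCML mutant replicate 3) for Cxcr4. None of these estimates was precise enough to call the 2 leukaemias alike. Numb, a Notch inhibitor and known Musashi target, had an interaction of -0.13 (95% confidence interval -0.97 to 0.71), while Jag1, a Notch ligand of the same list, had -2.22 ± 0.70. Tetraspanins had a median of -0.04 over 15, or -0.34 without AML mutant replicate 1, the array that stood apart, with Tspan5 at -1.13, Tspan8 at 1.46 and Tspan3 as above. The BCR-ABL, cytokine and Stat5 list had a median of -0.005 over 35, between -0.11 without AML mutant replicate 1 and 0.11 without bcCML wild-type replicate 2, and held Pik3r6, Il3ra and Spry2, an inhibitor of receptor tyrosine kinase signalling with an interaction of -1.20 ± 0.31.

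Among signalling lists, immediate early genes were negative in 24 of 31 with a median of -0.51 and none at an unadjusted p under 0.05, and the median was -0.11 without AML mutant replicate 2, -0.18 without AML wild-type replicate 2 and -0.29 without bcCML wild-type replicate 1. TGF-beta genes were negative in 19 of 25 with a median of -0.31, and Tgfbr1, the type I receptor, had an interaction of -0.80 ± 0.28. Interleukin and inflammation genes had a median of -0.22 over 20, which was between -0.33, without bcCML mutant replicate 1, and 0.0085, without bcCML mutant replicate 2. There Tnip1, an inhibitor of NF-kappa B signalling, rose in AML mutants (2765, 2769.8 and 2325 units against 1497, 1365 and 1163 in AML wild-type) and read 732, 776 and 833 units in bcCML mutants against 662, 706 and 623 in bcCML wild-type (interaction -0.74 ± 0.20). Glycolysis and hypoxia genes, which include Fbp1 and Vegfa, had a median of -0.12 over 30, between -0.24 without bcCML wild-type replicate 3 and -0.009 without AML mutant replicate 2, and Pfkm, a phosphofructokinase, fell in AML mutants with an interaction of 1.80 ± 0.56. The list of branched-chain amino acid genes and transporters had 22 members and a median of 0.19, or 0.039 without bcCML wild-type replicate 3, and in it Acad8, of valine breakdown, and the transporter Slc7a5 fell in AML mutants with interactions of 0.90 ± 0.30 and 0.60 ± 0.25. The p53 target list was positive in 20 of 29 with a median of 0.28, or 0.14 without AML wild-type replicate 3. The heat shock list was positive in 11 of 15 with a median of 0.28, or 0.12 without AML mutant replicate 1. The remaining lists lay between -0.82 (B cell genes, 5 members) and 0.14 (Numb and Notch genes, 18 members).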

How the data were processed

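Total RNA of 12 sorted samples was hybridised to Affymetrix arrays of 45037 probe sets. The deposited values are linear intensities that the authors normalised with GCRMA, per the submitters' processing notes, with its version and settings not given in the sources used here. The method raises the dimmest probe sets to a floor, and the lowest value on each array was 4.49 units. Values between that floor and 16 units, the filter level, are treated as too imprecise to rank. Arrays carry no read depth, and the 3 arrays per group limit the precision.

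Log2 was taken with no pseudocount. Probe sets with 1 gene symbol (34945, of which 34741 were matched to RefSeq by gene number) and log2 above 4 on at least 3 of the 12 arrays were kept, and the brightest stood for each of 10817 genes. The 932 probe sets with several symbols and 9160 not in the annotation used stayed unnamed. A model of 4 group means was fitted with limma 3.58.1 in R 4.3.3 (lmFit, eBayes, 8 residual degrees of freedom), with Benjamini-Hochberg adjustment over all 10817 genes at 0.05. The code was tested on simulated data. A group wholly below 16 units was set to 16 to give a bound ("at least"). The bounds were not tested, and a p-value given beside a bound belongs to the fitted difference.

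The genes, lists and named genes were chosen with earlier results of these data known, so no list is independent evidence. Named were the 10 smallest interaction p-values in each direction, the 10 smallest among genes with arrays apart in opposite directions, a fixed set, and up to 4 genes per list. A list's level on an array is the mean over members of the log2 value minus the gene's mean over all arrays. The intervals shown are 95% and cover the spread between arrays.

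Same-numbered mutant and wild-type arrays had deviations that correlated at 0.396, 0.364 and 0.278 in bcCML, and at -0.0552, -0.121 and -0.0302 in AML. By a rule of every same-numbered pair above 0.1, the numbers pair the bcCML arrays and not the AML arrays. A bcCML pair of unlike number, mutant 3 with wild-type 2, also exceeded 0.1, at 0.115. Deviations from a mean of 3 arrays sum to 0, so these correlations are not independent of each other. No label says what a number marks. Fits with a replicate block, other filters, normalisations and left-out arrays were alternatives. Figures were drawn in Python 3.11.15 with matplotlib 3.10.9.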

Additional observations from a re-analysis of the deposited data

Results flagged for a closer look

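The following results were singled out because every mutant array lay on one side of the wild-type arrays in bcCML and on the other side in AML. This held for 78 of 9663 measurable genes (0.807%), against 88 (0.814%) of all genes tested, so the share was no higher than the background. The interaction of the 78 was tested, and none passed the adjusted threshold with limma in the fit reported. The 10 with the smallest p were Tubb2a (interaction 1.99), Ipo4 (1.27), Abcb1b (fitted 2.55, at least 1.69) and Ak1 (fitted 3.23, at least 2.56), which were higher in bcCML mutants and lower in AML mutants, and Phlpp1 (-1.99), Adhfe1 (-1.34), Sik2 (-1.05), Tnfrsf21 (-0.95), Ndfip2 (-1.22) and Tspoap1 (-2.46), which were lower in bcCML mutants and higher in AML mutants. On a second probe set of Adhfe1, Tnfrsf21 and Ndfip2, the difference had the same sign in both leukaemias. Abcb1b and Ak1 met the rule in AML only through the wild-type arrays, so their AML differences are not independent of it.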

How the results depend on the processing

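The number of genes with an interaction at an adjusted p under 0.05 was 0 as reported and stayed at 0 when only measurable genes were fitted, with the mean of a gene's probe sets, with a trended or robust prior, and with the replicate block within each leukaemia or across both. It was 1 with no filter and 1 over all probe sets. It was 2 with a pseudocount of 16 units, with a log2 level of 6 and with quantile normalisation, and 3 with values below 16 set to 16 and with arrays centred on their median. It was 12 with the replicate block in bcCML only, chosen after seeing the data, and 90 with array weights, where the unadjusted count was 1861. Leaving out each array in turn gave 0 to 11. The cause was not tested. The count of genes with arrays apart in opposite directions was 78, and 67 at a log2 level of 6, 82 with the mean of probe sets, 91 after centring, 100 after quantile normalisation and 128 over all probe sets, where more features were counted. It was not recomputed with arrays left out. The number of lists with a positive median was 18, and 13 with the mean of probe sets to 19 at a log2 level of 6. Of 719 alternative list medians, 8 moved by more than the spread between replicates. The median interaction of all genes was 0.034, against 0.065 after quantile normalisation and 0.011 after centring. Of 175 named genes, 30 passed in some setting, 29 of them with array weights and 16 in a setting other than that, and 13 changed sign in some setting. With a pseudocount Cd247 was -0.00446. With the mean of probe sets Msi2 was 1.11 and Syk -0.51. With array weights Cxcr4 was -0.16, Hdc 0.26, Ier2 0.0807, Numb 0.41 and Rhd 0.98. Left-out arrays gave interactions of -0.44 to 0.20 for Bcl11b, -1.92 to 0.74 for Car2, -0.31 to 0.48 for Cd247, -0.078 to 0.31 for Cxcr4, -0.85 to 0.060 for Itgb3, -0.64 to 0.23 for Myc, -0.36 to 0.12 for Numb, -0.98 to 1.29 for Rhd and -0.34 to 0.58 for Selp. Depth is not recorded by arrays, and signal near the floor limits what can be read of dim genes.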
